A study of Mus musculus with 7 samples.

Results

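The 9 genes of the interferon response, Stat2, Irf9, Irf1, Irf7, Isg15, Ifit1, Ifit3, Rsad2 and Bst2 were followed across 7 RNA-seq libraries of mouse embryonic fibroblasts (MEFs). They were taken by gene symbol from the expression table, which lists 49382 genes, and all 9 symbols were found, each once. Values are in TPM, a share of all transcripts of a library that is corrected for transcript length, so levels of different genes can be set side by side. Of the 9, 7 reached an average of 2 TPM or more, as did 12909 genes in all, and these are called the kept genes. Ifit1 (mean 1.81 TPM) and Rsad2 (mean 0.151 TPM) lay below that level and are described by their values, outside the counts.

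The MEFs were primary wild type cells, prepared from embryos after the head and red tissue had been removed. The labels give embryonic days 13.5 to 14.4, and the methods of the study give a slightly later upper limit. The methods also describe a sort of MEFs for cells negative for CD45, CD11b and F4/80, with unsorted cells used where noted, whereas the labels of these libraries do not mention a sort. One library was made from unstressed cells and 1 from each of 6 stresses: glucose depletion for 10 h, glutamine depletion for 10 h, hypoxia at 0.1% oxygen for 10 h, endoplasmic reticulum (ER) stress from 1 µM thapsigargin for 10 h, oxidative stress from 10 µM sodium arsenite for 3 h, and osmotic stress for 3 h in medium with a further 100 mM of NaCl. The labels gave no culture time for the control. With 1 library per condition there was no replicate error and no test: every difference below is between single libraries, and a change of more than 2-fold in TPM + 1 is a description of size. The sequencing depth behind the TPM values is unknown.

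Interferons bind receptors on the cell surface and activate the kinases JAK1 and TYK2, which phosphorylate STAT2 among other factors. STAT2 and IRF9 are subunits of the factor ISGF3, which binds the interferon-stimulated response element (ISRE), whereas the gamma-activated site (GAS) is an element bound in the response to interferon-gamma. Fibroblasts make and answer type I interferon, and they also hold a basal level of many interferon-stimulated genes that depends on the same factors. IRF1 and IRF7 are themselves products of such genes and act as transcription factors, and ISG15, IFIT1, IFIT3, viperin (Rsad2) and tetherin (Bst2) are antiviral effectors.

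To show what the regulatory sequences of these genes look like, the region from 250 bases before to 50 bases after each annotated start was read from RefSeq promoters on GRCm38.p6. All 9 genes had an entry, and Irf1 and Irf9 had 2 starts each. The ISRE core, GAAA followed by any 2 bases and a further GAAA, was searched on both strands and occurred in 3.44% of all 32851 promoter windows, and the GAS core TTCNNNGAA, which reads the same on both strands, in 8.30%. Counted by gene, the ISRE letters were found in 6 of the 9, beside 3.99% of all 27025 genes with a promoter window. The GAS letters were found in 2 of the 9, beside 9.55%. The stretches holding them are given 5′ to 3′ on the strand of the gene, with the matched letters in capitals, so that an ISRE match on the opposite strand appears as TTTC, 2 bases and TTTC.
Stat2, chr10:128270256-128270305, + strand: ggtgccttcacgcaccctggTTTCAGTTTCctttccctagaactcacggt
Irf1, chr11:53769904-53769952, + strand: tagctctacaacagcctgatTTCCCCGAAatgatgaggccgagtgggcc
Isg15, chr4:156200855-156200916, − strand: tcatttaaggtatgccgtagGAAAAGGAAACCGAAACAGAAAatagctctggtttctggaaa
Ifit1, chr19:34640765-34640833, + strand: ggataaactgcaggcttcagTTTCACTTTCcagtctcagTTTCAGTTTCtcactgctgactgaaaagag
Ifit3, chr19:34583353-34583436, + strand: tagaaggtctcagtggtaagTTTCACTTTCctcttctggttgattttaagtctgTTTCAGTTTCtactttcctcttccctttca
Rsad2, chr12:26456543-26456592, − strand: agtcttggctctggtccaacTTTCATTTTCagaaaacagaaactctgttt
Bst2, chr8:71537567-71537622, − strand: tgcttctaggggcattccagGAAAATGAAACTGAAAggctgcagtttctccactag
Isg15 held 3 overlapping ISRE matches and Bst2 held 2, while Ifit1 and Ifit3 each held 2 separate ones. The capitals of Bst2 mark its ISRE matches, and its GAS match begins in the letters before them and overlaps the first. Irf1 held the GAS letters at 1 of its starts and no ISRE letters, and Irf9 and Irf7 held neither in these windows. A match is a run of letters and was not shown here to be a bound site.

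**Figure D1:**
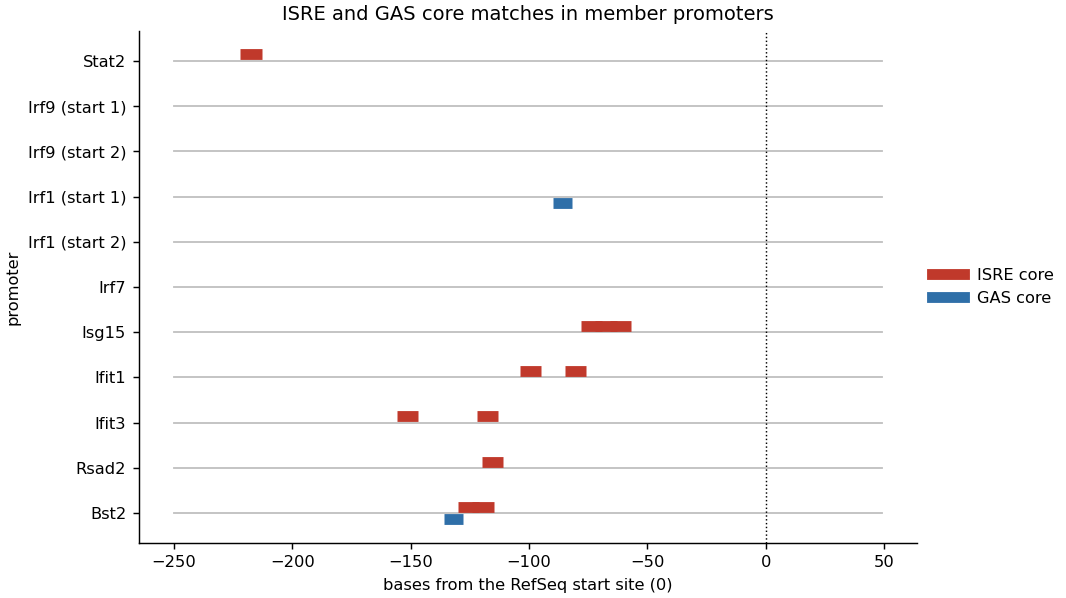
Matches to the ISRE core and the GAS core in the RefSeq promoter windows of the 9 genes, by distance in bases from the annotated start. Each line is 1 window, with ISRE matches in red and GAS matches in blue, and ISRE matches are present in Stat2, Isg15, Ifit1, Ifit3, Rsad2 and Bst2.

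The identity of the cells was compared with marker genes. All 8 fibroblast markers were among the kept genes, with a summed level of 11389 TPM in the control and a range of 6160 TPM under ER stress to 12781 TPM under hypoxia. Of 9 macrophage markers 1 was kept, and 5, Ptprc and Adgre1 among them, stayed under 1 TPM in every library. The summed macrophage level was 11.8 TPM in the control, lowest under ER stress at 7.48 TPM and highest under osmotic stress at 17.1 TPM. No marker of dendritic or lymphoid cells was kept, and their summed level ranged from 0.123 to 2.11 TPM, again highest under osmotic stress. Endothelial markers, 1 of 5 kept, summed to between 4.09 and 9.07 TPM. Epithelial markers, 2 of 5 kept, summed to 47.5 TPM in the control and to between 41.6 and 159 TPM, highest under hypoxia, where the keratin gene Krt19 was at 156 TPM beside 41.6 TPM in the control, and Epcam and Cdh1 stayed under 1 TPM in every library. The share of TPM from mitochondrial genes ran from 5.09% under ER stress to 9.25% under oxidative stress. In bulk RNA, fewer cells of a type and less RNA per cell cannot be told apart.

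Stat2 and Irf9, subunits of ISGF3, were lowest under glutamine depletion and osmotic stress and close to the control under hypoxia. Stat2 (chromosome 10, 128270559 to 128292849 on GRCm38, + strand) was at 16.3 TPM in the control, 10.5 under glucose depletion, 6.65 under glutamine depletion, 18.6 under hypoxia, 9.72 under ER stress, 12.6 under oxidative stress and 7.35 under osmotic stress. Hypoxia was therefore the one stress in which Stat2 lay above the control, by 0.18 on the log2(TPM + 1) scale, and the highest library exceeded the lowest 2.80-fold. Against the control, Stat2 fell by 1.18 under glutamine depletion and by 1.05 under osmotic stress on that scale. Neither reached 2-fold with 5 TPM added in place of 1 (−0.87 and −0.79) or against the median of the other 6 libraries (−0.71 and −0.58).

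Irf9 (chromosome 14, 55603571 to 55610030, + strand), the subunit that gives ISGF3 its DNA sequence preference, was at 13.9 TPM in the control, 12.3 under glucose depletion, 7.96 under glutamine depletion, 15.2 under hypoxia, 13.2 under ER stress, 9.17 under oxidative stress and 6.37 under osmotic stress. Its libraries with the lowest level were the same pair as for Stat2, in the opposite order, and under ER stress it stood at its control level (−0.07) where Stat2 was lower (−0.69). Irf9 fell by 1.02 under osmotic stress, and its change of −0.74 under glutamine depletion did not reach 2-fold. The median change of all kept genes was −0.16 under oxidative and −0.12 under osmotic stress, and within 0.1 of 0 in the other conditions. Relative to that median, the osmotic changes were −0.93 for Stat2 and −0.90 for Irf9, both short of 2-fold. The osmotic change of Irf9 was also short of it with 5 TPM added (−0.74) and against the median of the other 6 libraries (−0.90).

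Irf1 showed the widest range of the kept members. This gene (chromosome 11, 53770014 to 53778374, + strand) encodes a transcription factor that is induced rapidly through the GAS. It was at 26.6 TPM in the control, 20.4 under glucose depletion, 10.05 under glutamine depletion, 23.3 under hypoxia, 6.40 under ER stress, 14.5 under oxidative stress and 3.36 under osmotic stress, a 7.92-fold span. The control was the highest library and every stress lay below it.

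Irf1 fell by 2.66 under osmotic stress, by 1.90 under ER stress and by 1.32 under glutamine depletion on the log2(TPM + 1) scale. Set among the 12909 kept genes, 1.19% changed as far down or further under osmotic stress, 2.97% under ER stress and 1.69% under glutamine depletion. The osmotic and ER differences were past 2-fold with every scaling and pseudocount tried and also when the median of the other 6 libraries took the place of the control, where they came to −2.06 and −1.30. The difference under glutamine depletion was −0.72 against that median. By the root mean square distance between the 6 log2 changes, the kept genes most like Irf1 were Zfp467 (0.362), Fam43a (0.421) and Rnf135 (0.457).

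Irf7 (chromosome 7, 141262706 to 141266481, − strand), the factor that amplifies type I interferon production, moved the other way under osmotic stress. It was at 2.80 TPM in the control, 2.12 under glucose depletion, 3.03 under glutamine depletion, 2.11 under hypoxia, 1.04 under ER stress, 2.60 under oxidative stress and 5.44 under osmotic stress. The osmotic library was the highest and the ER stress library the lowest, with a change of 0.76 and of −0.90, neither past 2-fold at these low levels. With 0.1 TPM added in place of 1, the change under ER stress was −1.35, past 2-fold. Under osmotic stress 95.5% of kept genes had a signed change at or below that of Irf7, a share that includes all genes that fell. The summed macrophage markers were at their highest in the same library, through Itgam, Cd68, Csf1r and Lyz2, while Ptprc and Tyrobp were listed at 0 there and Fcer1g and Mrc1 were below the control. The part of these markers in the Irf7 level was not tested.

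**Figure D2:**
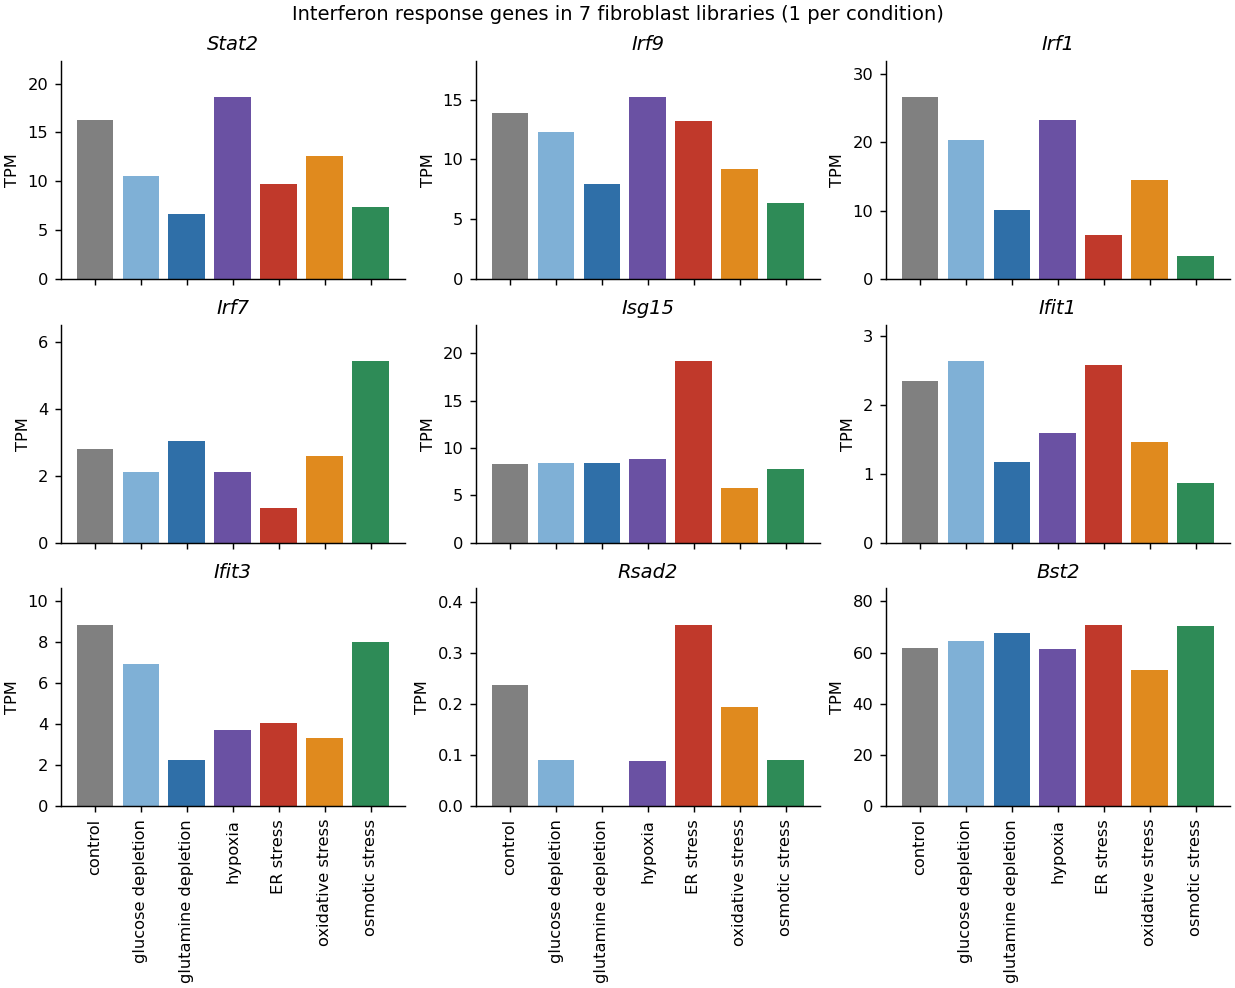
Level of each of the 9 genes in TPM on a linear axis from 0, 1 panel per gene with its own scale and 1 bar per library, without error bars since each condition has 1 library. Irf1 runs from 3.36 to 26.6 TPM, and Bst2 stays between 53.2 and 70.9 TPM.

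Among the effectors, Isg15 was higher under ER stress and Ifit3 was lower in most stresses. Isg15 (chromosome 4, 156199424 to 156200818, − strand), a ubiquitin-like protein that is conjugated to other proteins, was at 8.33 TPM in the control, 8.41 under glucose depletion, 8.46 under glutamine depletion, 8.84 under hypoxia, 19.2 under ER stress, 5.73 under oxidative stress and 7.77 under osmotic stress. Apart from ER stress, which lay above, and oxidative stress, which lay below, its libraries stayed between 7.77 and 8.84 TPM. Isg15 rose by 1.11 under ER stress and was at −0.47 under oxidative stress. Under ER stress 93.0% of kept genes had a signed change at or below that of Isg15, a share that includes all genes that fell. Of its 31-base words, 13.1% also occur in transcripts of other genes. With 5 TPM added in place of 1, the ER stress change was 0.86.

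Ifit3 and Ifit1 encode antiviral proteins of the same family. Ifit3 (chromosome 19, 34583531 to 34588731, + strand) was at 8.83 TPM in the control, 6.92 under glucose depletion, 2.24 under glutamine depletion, 3.72 under hypoxia, 4.06 under ER stress, 3.31 under oxidative stress and 7.98 under osmotic stress. The glucose and osmotic libraries stayed near the control and the other 4 were lower. Ifit3 fell by 1.60 under glutamine depletion, by 1.19 under oxidative stress and by 1.06 under hypoxia, and was at −0.96 under ER stress.

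Ifit3 shares 61.8% of its 31-base words with the neighbouring copy Ifit3b, so the division of reads between them is uncertain. Summed over both copies the level was 11.6 TPM in the control, 8.23, 3.31 and 4.66 under glucose depletion, glutamine depletion and hypoxia, and 5.53, 4.15 and 8.79 under ER, oxidative and osmotic stress. The order of the conditions was kept by the sum, and the same 3 conditions were past 2-fold, with changes of −1.55, −1.29 and −1.15 under glutamine depletion, oxidative stress and hypoxia. With 5 TPM added in place of 1, none of the 3 changes of Ifit3 alone reached 2-fold (−0.93, −0.73 and −0.67), nor did they against the median of the other 6 libraries (−0.97, −0.55 and −0.42).

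Ifit1 (chromosome 19, 34640871 to 34650009, + strand) was at 2.35 TPM in the control, 2.63 under glucose depletion, 1.17 under glutamine depletion, 1.60 under hypoxia, 2.58 under ER stress, 1.46 under oxidative stress and 0.868 under osmotic stress. No change of Ifit1 was past 2-fold, and unlike Ifit3 its lowest library was osmotic stress (−0.84). Rsad2 (chromosome 12, 26442746 to 26456452, − strand), whose product viperin makes a chain-terminating nucleotide, was under 0.4 TPM throughout, with 0.238 in the control, 0.356 under ER stress, 0.195 under oxidative stress, and between 0.0883 and 0.0903 under glucose depletion, hypoxia and osmotic stress. It is listed at 0 under glutamine depletion, and no direction was read from such levels.

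Bst2 (chromosome 8, 71534255 to 71537456, − strand), which tethers budding virus particles to the cell surface, was the most abundant member in every library. It was at 61.9 TPM in the control, 64.6 under glucose depletion, 67.5 under glutamine depletion, 61.3 under hypoxia, 70.9 under ER stress, 53.2 under oxidative stress and 70.4 under osmotic stress. Its highest library exceeded its lowest 1.33-fold, and its 6 changes lay between −0.21 and 0.19. Bst2 and Irf7 were the kept members that passed 2-fold in no stress with 1 TPM added.

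**Figure D3:**
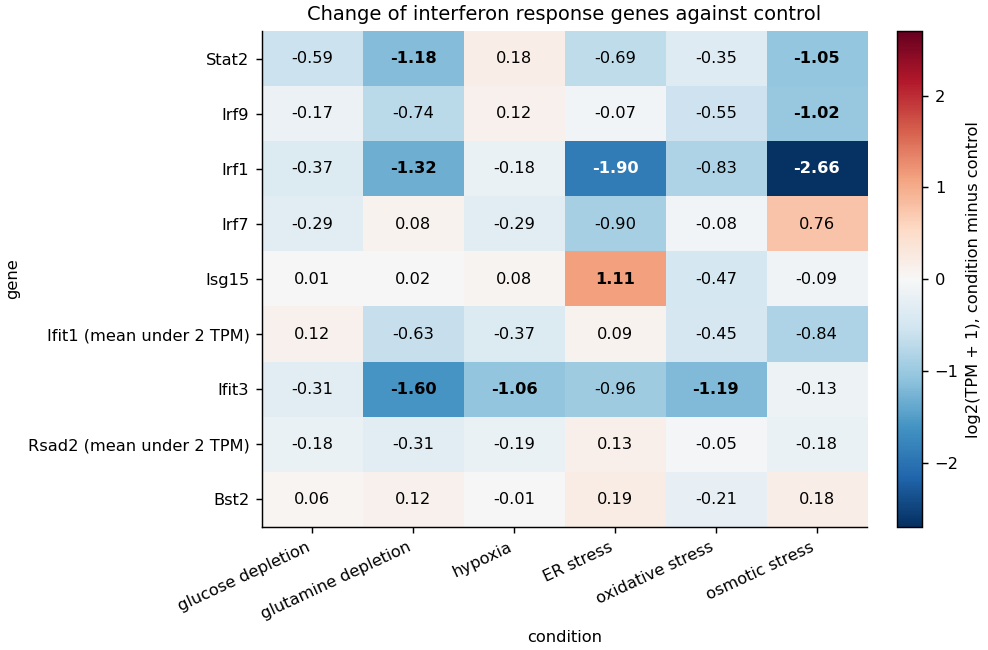
Heat map of the change of each of the 9 genes against the control, as the difference of log2(TPM + 1), in the 6 stresses, with changes past 2-fold in bold. The lowest value is Irf1 under osmotic stress (−2.66) and the highest is Isg15 under ER stress (1.11).

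Counted by condition, the 7 kept members moved past 2-fold mainly downwards. Under glucose depletion 0 rose and 0 fell, where 1.83% of all kept genes rose and 2.41% fell. Under glutamine depletion 3 fell (Stat2, Irf1 and Ifit3) and 0 rose, against 3.21% of all kept genes in each direction. Under hypoxia 1 fell (Ifit3) and 0 rose, where 2.64% fell and 3.57% rose. Ifit3 was thus the one member past 2-fold in both glutamine depletion and hypoxia. Under ER stress 1 rose (Isg15) and 1 fell (Irf1), where 8.60% rose and 11.0% fell. Under oxidative stress 1 fell (Ifit3) and 0 rose, where 4.85% fell and 3.94% rose. Under osmotic stress 3 fell (Stat2, Irf9 and Irf1) and 0 rose, where 8.76% fell and 3.08% rose.

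Of the 42 pairs of kept member and stress, 9 were past 2-fold down, 1 was past 2-fold up and 32 were neither. Over all kept genes, between 2.41% and 11.0% fell and between 1.83% and 8.60% rose, depending on the stress. The median change of the kept members was −0.74 under glutamine depletion beside −0.09 for all kept genes, and −0.69 beside 0 under ER stress. It was −0.47 beside −0.16 under oxidative stress and −0.29 beside −0.02 under glucose depletion. Under hypoxia (−0.01 beside −0.05) and osmotic stress (−0.13 beside −0.12) the members' median lay near that of all genes, although under osmotic stress the members themselves ran from −2.66 to 0.76. Under oxidative stress all 7 kept members were below the control, and 6 of the 7 were below the median change of all kept genes. Most kept genes were below the control there too: 58.4% changed as far down as Irf7 (−0.08), the member nearest the control, or further. Against the median of the other 6 libraries, Stat2 (0.29), Irf7 (0.07) and Irf1 (0.01) were not lower under oxidative stress, while the remaining kept members were.

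All 6 comparisons use the same control library. That library was the highest of the 7 for 2 of the 7 kept members, Irf1 and Ifit3, beside 11.7% of all kept genes, and the lowest for 0 of the 7, beside 6.51% of all kept genes.

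Stresses of equal duration were therefore also set against each other, without the control. At 3 h, Irf1 was lower under osmotic than under oxidative stress by a log2 difference of −1.83 and Ifit3 was higher by 1.06, where 7.86% of kept genes were more than 2-fold lower and 3.90% more than 2-fold higher. At 10 h, Ifit3 was lower under glutamine than under glucose depletion (−1.29), where 2.37% of kept genes were more than 2-fold lower, and Irf1 (−0.95), Stat2 (−0.59) and Irf9 (−0.57) were lower by less than 2-fold. ER stress against hypoxia gave 1.04 for Isg15 and −1.71 for Irf1, where 10.9% of kept genes were more than 2-fold higher and 11.5% more than 2-fold lower. Against glucose depletion, ER stress gave 1.10 for Isg15 and −1.53 for Irf1, where 9.02% of kept genes were more than 2-fold higher and 9.71% more than 2-fold lower. Against glutamine depletion it gave 1.09 for Isg15, where 9.75% were more than 2-fold higher. Hypoxia against glutamine depletion gave 1.36 for Stat2 and 1.14 for Irf1, where 5.41% were more than 2-fold higher.

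The members were then placed beside other genes of the pathway, drawn from lists of interferons, receptors and kinases, negative regulators, other IRFs, sensors and adaptors, other interferon-stimulated genes, and genes of the interferon-gamma and MHC class I response. Of 117 listed genes 114 were in the table and 63 were kept. Among the 63, 21 were past 2-fold in at least 1 stress, of which 17 went down and 4 went up, and 42 were past 2-fold in none. Over all 12909 kept genes, 34.4% were past 2-fold in at least 1 stress, 18.9% down only, 12.8% up only and 2.73% in both directions. The pathway share past 2-fold in at least 1 stress was near that of all genes. Its down-only share was higher and its up-only share lower, and these differences were not tested. Under glucose depletion 0 rose and 0 fell, and under glutamine depletion 0 rose and 1 fell, which is 1.59% of the 63 beside 3.21% of all kept genes. Under hypoxia 3 rose (4.76% beside 3.57%) and 0 fell. Under ER stress 3 rose (4.76% beside 8.60%) and 9 fell (14.3% beside 11.0%). Under oxidative stress 0 rose and 5 fell (7.94% beside 4.85%), and under osmotic stress 1 rose (1.59% beside 3.08%) and 5 fell (7.94% beside 8.76%).

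The interferon ligands themselves were scarcely seen. None of the 11 listed was kept, and 9, among them Ifnb1, the interferon that fibroblasts first make, were listed at 0 in all 7 libraries. The other two, Ifnz and Ifne, reached at most 0.980 and 0.320 TPM. The depth is unknown, so these values set no limit on low transcription.

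Of 9 listed receptor chains and kinases, 8 were kept and none was past 2-fold in any stress. In the control, the kinase Jak1 was at 161 TPM and Ifngr2, a chain of the interferon-gamma receptor, at 62.4 TPM. Ifnar2, a chain of the type I receptor, was at 48.7 TPM and stayed between 40.9 and 53.5 TPM.

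Among the negative regulators, Ptpn2, a phosphatase that acts on JAK1, rose under ER stress from 33.4 to 97.4 TPM (1.52). Socs3, an inhibitor of cytokine receptor signalling, fell there from 11.0 to 4.07 TPM (−1.25). Of the other IRFs, Irf3, which turns on Ifnb1 after viral sensing, fell under osmotic stress from 66.7 to 20.9 TPM (−1.63), the same library in which Irf1 was lowest and Irf7 highest.

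The kept genes of nucleic acid sensing that passed 2-fold were all lower, in different stresses. Tbk1, the kinase of IRF3, fell under ER stress from 34.5 to 16.0 TPM (−1.06). Under oxidative stress Tlr3, a receptor of double-stranded RNA, fell from 4.59 to 1.56 TPM (−1.13). Under osmotic stress Mb21d1, which encodes the DNA sensor cGAS, fell from 4.83 to 1.13 TPM (−1.46) and Ticam1, the adaptor of TLR3, from 13.7 to 4.84 TPM (−1.34).

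Other interferon-stimulated genes differed from the members and among themselves. Ifit2, of the same family as Ifit3, was at 13.1 TPM in the control, 8.09 under glucose depletion, 4.47 under glutamine depletion, 10.6 under hypoxia, 8.15 under ER stress, 5.65 under oxidative stress and 17.0 under osmotic stress. As for Ifit3, its lowest levels were under glutamine depletion (−1.37) and oxidative stress (−1.09). Under hypoxia Ifi204, a DNA-binding protein of the p200 family, rose from 3.51 to 14.4 TPM (1.77) and Samd9l, an antiviral restriction factor, from 6.97 to 22.7 TPM (1.57), while no member rose past 2-fold. Krt19 was highest in that library too, and its part in these values was not tested. Ifi204 was also past 2-fold up under ER stress, at 8.64 TPM (1.10). Isg20, an exonuclease, rose under osmotic stress from 7.48 to 22.2 TPM (1.45) and also rose under hypoxia (1.11) and ER stress (1.12). Under osmotic stress Pml fell from 28.1 to 11.3 TPM (−1.24) and Dtx3l from 4.25 to 1.48 TPM (−1.08). Pml also fell under oxidative stress (−1.16).

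Under ER stress, where Isg15 was higher, Uba7, the enzyme that activates ISG15 for conjugation, fell from 3.43 to 0.608 TPM (−1.46). Lgals3bp, a secreted glycoprotein, fell there from 93.2 to 28.3 TPM (−1.68). Ifitm2, a membrane protein that hinders virus entry, fell from 463 to 225 TPM (−1.04). The fibroblast markers also had their lowest sum in that library, and its part in these values was not tested. Of the interferon-gamma and MHC genes, Irgm1, an immunity-related GTPase, fell from 28.7 TPM in the control to 10.4 TPM under ER stress and 10.2 TPM under oxidative stress. B2m, the light chain of MHC class I, was at 1273 TPM in the control and ranged from 1026 to 1549 TPM.

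**Figure D4:**
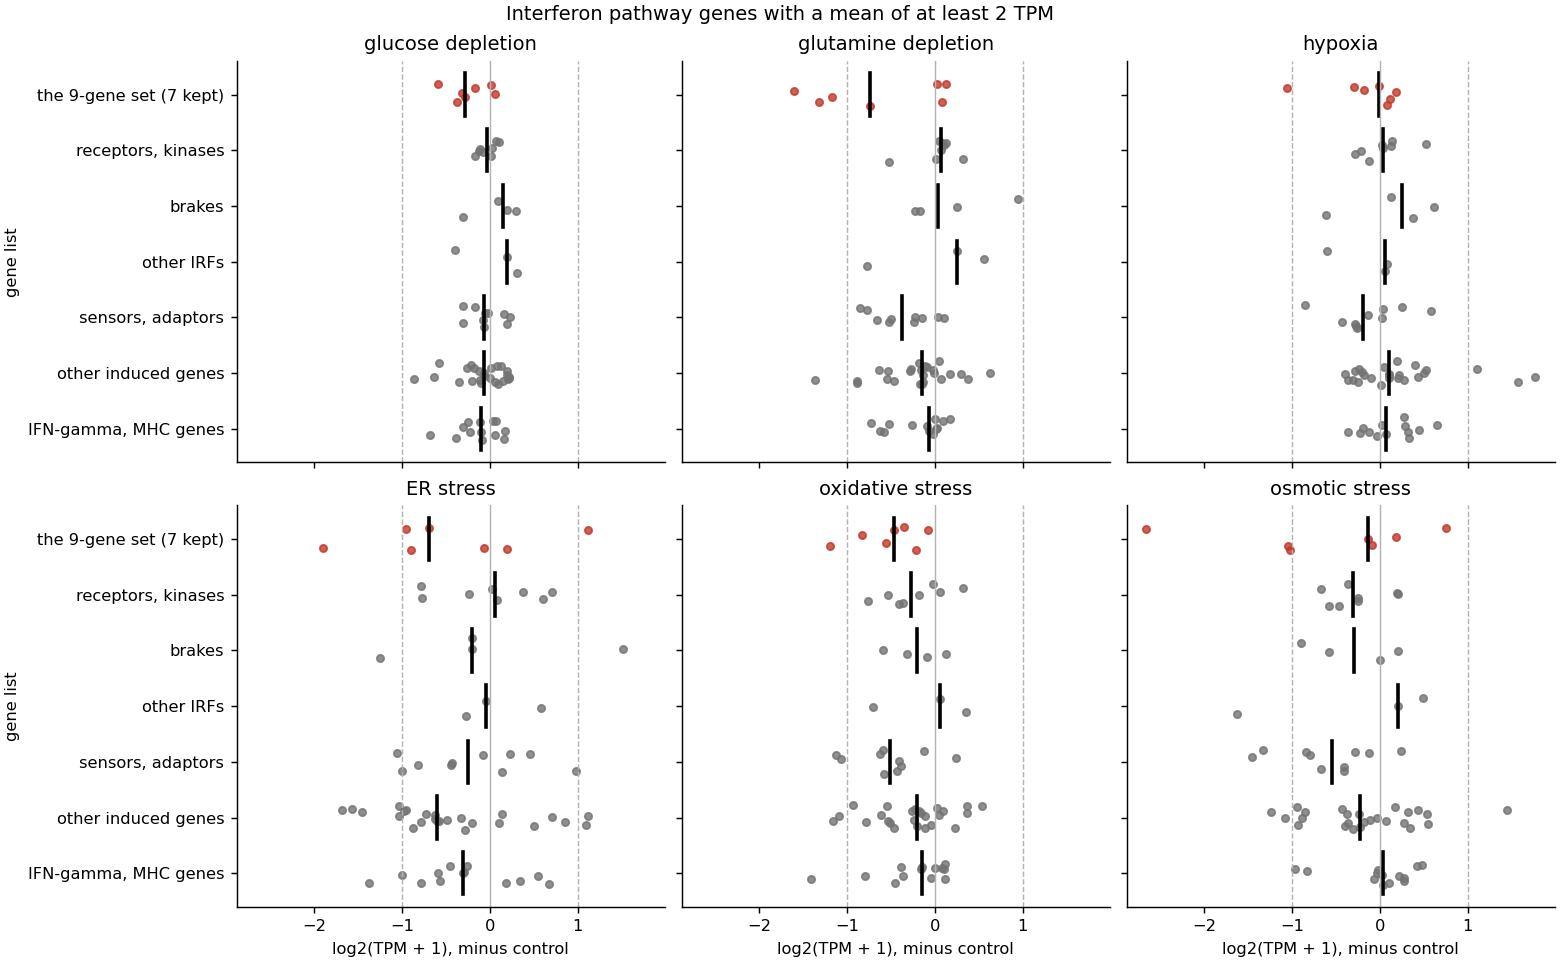
Change against the control, as the difference of log2(TPM + 1), of the 7 kept members (red) and the 63 kept pathway genes (grey) by list in the 6 stresses, with 1 point per gene, a black line at each list's median and dashed lines at 2-fold. Most grey points lie within 2-fold of the control, with 9 genes past 2-fold down under ER stress and 3 past 2-fold up under hypoxia.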

How the data were processed

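The deposited table holds, per the labels and the methods of the study, TPM values that the authors obtained with Kallisto 0.43.1 from stranded paired-end poly(A) RNA-seq, against Ensembl mouse cDNA of GRCm38, and summed per gene. TPM keeps no depth, so counting error cannot be given, and reads shared between similar copies are divided by estimation. Changes were computed here as log2(TPM + 1) against the control, which understates the change of low genes. Kept genes averaged 2 TPM or more across the libraries, and a change of more than 2-fold in TPM + 1 was counted as up or down. No p-value was computed, since each condition has 1 library. Counts and medians stand beside those of all kept genes. The calculation was tested on simulated data, with planted changes well past 2-fold in abundant genes only. That test does not cover changes near 2-fold or genes at low levels. The members and gene lists were chosen with earlier results of these data known. From each pathway list, up to 3 genes past 2-fold per stress and the 3 most abundant in the control could be named. A pathway gene is not reported here and was left out of the lists, counts and figures. Rigi, Sting1 and Cgas are in the table as Ddx58, Tmem173 and Mb21d1. For markers on more than 1 gene entry the entries were summed. Coordinates are from GENCODE M21 and promoters from RefSeq, both GRCm38. Shared 31-base words were counted over annotated transcripts. Values were computed with Python 3.11.15, pandas 2.3.3 and numpy 2.4.6. Other pseudocounts, filters, limits, centring and reference levels were tried as alternatives.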

Additional observations from a re-analysis of the deposited data

How the results depend on the processing

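No paired analysis was possible because each condition has 1 library, and for the same reason no library could be left out of a group. Of 276 recomputed changes of the members, 0 changed direction past 2-fold, 256 stayed on their side of 2-fold, 16 dropped below it and 4 passed it. The 276 include Ifit1 and Rsad2, and most were of changes not past 2-fold at first. A change short of 2-fold both times was counted as staying even where its sign turned. Against the median of the other 6 libraries, Irf1 under hypoxia went from −0.18 to 0.89. Ifit3 under osmotic stress went from −0.13 to 0.88. Of the changes past 2-fold at first, only those of Irf1 under osmotic and ER stress stayed past it in every recomputation. The number of the 7 kept members past 2-fold changed as follows, where the cause was not tested. A condition not named for a setting kept its count. With 0.1 TPM added, 3 in place of 1 were down under ER stress. With 5 TPM added, 1 was down under glutamine depletion and 1 under osmotic stress in place of 3 each, 0 in place of 1 under hypoxia and oxidative stress, and 0 in place of 1 were up under ER stress. Centred on the median of all kept genes, 1 in place of 3 was down under osmotic stress. Against the median of the other 6 libraries, 0 were down under glutamine depletion, hypoxia and oxidative stress and 1 under osmotic stress. A limit of 1.5-fold gave 4 down under ER stress, 4 under glutamine depletion, 1 under glucose depletion, 2 under oxidative stress, and 1 up under osmotic stress. A limit of 3-fold gave 1 down under glutamine depletion and 1 under osmotic stress, 0 under hypoxia and oxidative stress, and 0 up under ER stress. A minimum mean of 10 TPM, which leaves fewer members, gave 2 down under glutamine depletion. It gave 0 down under hypoxia and oxidative stress and 0 up under ER stress.

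The number of pathway genes past 2-fold in either direction was 0 under glucose depletion, 1 under glutamine depletion, 3 under hypoxia, 12 under ER stress, 5 under oxidative stress and 6 under osmotic stress. A condition not named for a setting again kept its count. With 0.1 TPM added it was 1, 3, 4, 18, 7 and 11 in the same order. With 5 TPM added it was 0 under glutamine depletion, 2 under hypoxia, 5 under ER stress, 1 under oxidative stress and 3 under osmotic stress. Without mitochondrial genes it was 1 under glucose depletion, 14 under ER stress, 6 under oxidative stress and 7 under osmotic stress. Centred on the median, it was 2 under glutamine depletion, 2 under oxidative stress and 5 under osmotic stress. Against the median of the other 6 libraries it was 0 under glutamine depletion, 7 under ER stress and 0 under oxidative stress. At 1.5-fold it was 3, 12, 9, 33, 14 and 17 in the order first given, and at 3-fold it was 0 under glutamine depletion, 1 under hypoxia, 1 under ER stress, 0 under oxidative stress and 1 under osmotic stress. With no minimum level it was 1, 2, 6, 14, 9 and 9 in the order first given. With a minimum mean of 10 TPM it was 0, 1 and 2 under glutamine depletion, hypoxia and oxidative stress. It was 10 under ER stress and 4 under osmotic stress with that minimum. The sum of Ifit3 and Ifit3b was added after seeing the data.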

Other observations

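Below the minimum level, Zbp1 and Cxcl10 were picked after their values were seen, and each rose past 2-fold in 1 stress. Other listed genes below that level also passed 2-fold, in both directions. Ifitm1 rose under oxidative stress (1.58), while Ifi44 fell there (−1.30) and Nlrc5 fell under glucose depletion (−1.54). Zbp1, a sensor of Z-form nucleic acid, was at 0.387 TPM in the control, 0.530 under glucose depletion, 0.518 under glutamine depletion, 1.49 under hypoxia, 1.61 under ER stress, 0.562 under oxidative stress and 5.48 under osmotic stress, where its change was 2.23 on the log2(TPM + 1) scale. The osmotic library was also the highest for Irf7 and for the summed macrophage markers, of which Ptprc and Tyrobp were listed at 0 there, and the part of these markers in the Zbp1 level was not tested. Cxcl10, a chemokine induced by interferon, was at 0.150 TPM in the control, between 0.572 and 1.18 TPM in 5 stresses and at 4.65 TPM under ER stress (2.30), the library in which Isg15 was highest.

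By the root mean square distance between the 6 log2 changes, the kept genes nearest to the median profile of the members were Echdc1 (0.0748), Mpst (0.107) and Ski (0.111). None of these 3 is in the pathway lists.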
